A study of Mus musculus with 24 samples.

Results

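The chromosome 4 zinc finger cluster was followed here through 10 related genes, *Zfp990*, *Zfp600*, *Zfp992*, *Zfp981*, *Zfp993*, *Rex2*, *Gm13147*, *Zfp982*, *Zfp985* and *Zfp534*, out of 47937 gene rows in the count table. The set was chosen by the levels of *Zfp985* and *Gm13147*, which had no count in WT and were high in *6KO1*, and by its place on chromosome 4. For that reason the *6KO1* values of all members, and the values of this pair of genes against WT, are given below as a description without a test. Tests were kept to comparisons that the choice did not use.

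RNA-seq of total RNA was performed on 24 cultures of mouse embryonic fibroblasts (MEF), 3 for each of 8 conditions. The study asked how far the 6 enzymes that methylate lysine 9 of histone H3 (H3K9), *Eset1* (*Setdb1*), *Eset2* (*Setdb2*), *Suv39h1*, *Suv39h2*, *G9a* (*Ehmt2*) and *Glp* (*Ehmt1*), can stand in for each other. All cultures came from *Eset1*-conditional MEF that carry a tamoxifen-inducible Cre, and 4-hydroxytamoxifen (4-OHT, 1 uM) was given to delete *Eset1*. WT was the conditional clone without 4-OHT and *E1* the same clone with it. In series 1, *E1 S1S2* carried mutations of *Suv39h1* and *Suv39h2* in addition to the *Eset1* deletion, and *6KO1* was a clone derived from it that also lacked *Eset2*, *G9a* and *Glp*. In series 2, *E2* was an *Eset2*-mutant clone without 4-OHT, *E1E2* the same clone with 4-OHT, *E1E2 G9Gl* a derived clone that also lacked *G9a* and *Glp*, and *6KO2* a clone derived from that with *Suv39h1* and *Suv39h2* mutated as well. WT and *E1* were the same clone without and with 4-OHT, as were *E2* and *E1E2*, so that in these comparisons the drug and the deletion cannot be told apart. Every other genotype was a single clone, so there genotype and clone cannot be told apart. After the gene disruptions the authors put in an inducible Cre construct with EGFP and puromycin resistance again, and kept the lines in puromycin. Where this sets the mutant clones apart from WT and *E1*, it cannot be told apart from genotype either. The p-values measure the spread between cultures of a clone. In bulk RNA, fewer cells expressing a gene and less RNA per cell cannot be told apart.

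Zinc finger genes of this kind encode proteins with arrays of C2H2 zinc fingers, each of which reads a few bases of DNA. Most carry a KRAB domain, which binds the corepressor Trim28. Trim28 in turn brings in the H3K9 methyltransferase Setdb1, and many of the proteins silence endogenous retroviruses. The genes themselves sit in clusters of recent duplicates, and such clusters are known to be covered by H3K9 trimethylation.

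The members lay on the distal part of chromosome 4 (GRCm38), between position 145510759 and position 147702553, a stretch of 2191795 bases in which the reference annotation places 81 genes. *Zfp534* is on the minus strand and the other members are on the plus strand. *Gm13147* (ENSMUSG00000087207) is annotated as a transcribed unprocessed pseudogene, and the other members as protein-coding. *Zfp985* (ENSMUSG00000065999) spans 147553277 to 147585198 in 6 exons. *Gm13147* spans 147230284 to 147259338 in 5 exons.

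The members are close copies of each other and of their neighbours, which limits what a read can tell. Of all windows of 75 bases, the read length, in the annotated transcripts of *Rex2*, 82.4% also occurred in another gene, and 73.1% occurred in *Zfp600*. The shares were 78.7% for *Zfp993*, 74.5% for *Zfp600* and 53% for *Zfp534*. They were lowest for *Zfp985* at 4.36%, *Zfp982* at 4.93% and *Zfp990* at 11.6%. *Gm13147* shared 34.1%, *Zfp992* 34.5% and *Zfp981* 23.3%. Counts of *Rex2*, *Zfp600*, *Zfp993* and *Zfp534* are therefore uncertain as to which copy they came from, whereas nearly all windows of *Zfp985* and *Zfp982* occurred in that gene alone.

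**Figure D1:**
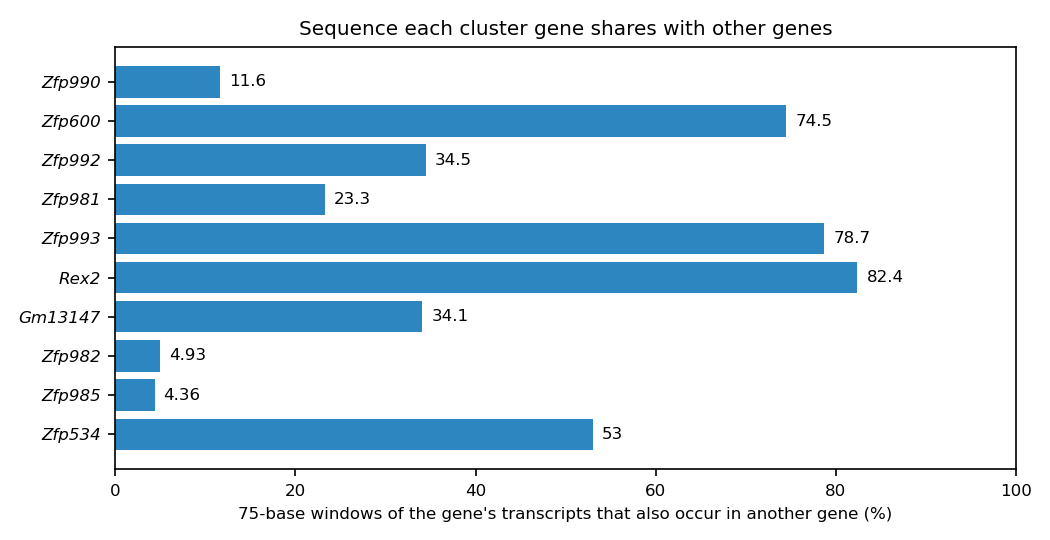
Bars give, for each of the 10 cluster genes on the vertical axis, the percentage of 75-base windows of its annotated transcripts that also occur in another gene (horizontal axis, 0 to 100%). *Rex2*, *Zfp993* and *Zfp600* share over 74% of their windows, *Zfp985* and *Zfp982* under 5%.

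The genes also resembled each other in front of their start sites. RefSeq start sites were given for 7 of the 10 members (GRCm38.p6), and *Gm13147*, *Zfp990* and *Zfp992* had no entry. In the 250 bases before the start site, *Zfp600*, *Zfp981*, *Rex2*, *Zfp982*, *Zfp985* and *Zfp534* aligned to each other with 79.7% to 98.4% identical bases over 15 pairs, the highest being *Zfp600* with *Rex2*. *Zfp993*, whose RefSeq start lies inside *Zfp981* and 98112 bases before the annotated gene, aligned to these 6 with 42.7% to 49.7%. The RefSeq start of *Zfp981* also lies inside its annotated gene, 12893 bases from the annotated start. Gaps were left out, so identity rests on 191 to 250 aligned bases among the 6 and on 89 to 147 with *Zfp993*. The longest stretch present without a mismatch in all 6 had 15 bases. The stretch was picked by sequence alone, and its part in the levels was not tested. It is shown in capitals within its surroundings, 5′ to 3′:
*Zfp600*, chr4:146156662-146156751, plus strand: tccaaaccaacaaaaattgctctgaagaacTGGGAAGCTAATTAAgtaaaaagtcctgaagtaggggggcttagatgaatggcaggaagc
*Zfp981*, chr4:146514726-146514815, plus strand: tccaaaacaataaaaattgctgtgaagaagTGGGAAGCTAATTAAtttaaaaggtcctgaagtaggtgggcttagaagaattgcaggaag
*Rex2*, chr4:147021685-147021774, plus strand: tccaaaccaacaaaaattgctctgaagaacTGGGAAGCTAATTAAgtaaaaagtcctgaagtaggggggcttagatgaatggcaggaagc
*Zfp982*, chr4:147492236-147492325, plus strand: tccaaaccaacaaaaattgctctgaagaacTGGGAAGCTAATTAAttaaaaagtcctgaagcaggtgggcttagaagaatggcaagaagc
*Zfp985*, chr4:147553111-147553200, plus strand: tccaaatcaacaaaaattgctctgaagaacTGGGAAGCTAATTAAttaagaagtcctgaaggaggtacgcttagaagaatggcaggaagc
*Zfp534*, chr4:147702678-147702767, minus strand: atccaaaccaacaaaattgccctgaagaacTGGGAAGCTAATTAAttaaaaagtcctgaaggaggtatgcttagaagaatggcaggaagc

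The capitals began 135 bases before the start site in *Zfp600* and *Rex2*, 136 in *Zfp985*, 151 in *Zfp982*, 164 in *Zfp981* and 106 in *Zfp534*. The 15 bases, TGGGAAGCTAATTAA, were searched on both strands in the 250 bases before all 32851 RefSeq start sites of the mouse. They occurred before 12 of them (0.0365%), all 12 on chromosome 4 and on the strand of the gene. The 6 that were not members were *Gm13212*, *Zfp980*, *Zfp987*, *Zfp988* and *Zfp979*, which lie between the outermost members, and *Zfp984*, which lies just outside. The stretch was found from the members themselves, so its presence there is no finding, and a match is not evidence of a bound factor.

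Each library held 19541909 to 31489070 counts on genes, so that 1 CPM (a TMM-scaled count as a share of the library) stood for 19.5 to 32.3 counts. A gene with no count in a group of 3 libraries was put at a floor of 3 counts over the group wherever a fold is given. WT replicate 2 stood apart from the other WT libraries, with a chi-square of 52.5 and 62.8 per gene against 2.12 to 23.2 for the other 22 pairs within a condition. Fibroblast markers were present, with 6 to 9 of 10 above 1 CPM in every library of a condition. Their summed level was lowest in *6KO1*, at 3033 to 3264 CPM, and *6KO2*, at 3988 to 4222, against 5716 to 6819 in WT. *E1E2* came next at 4312 to 4640 CPM, and *E1E2 G9Gl* was highest at 7589 to 8070. *Dcn* and *Pdgfra* were instead higher in *6KO2* (5.46 and 3.02 CPM on average) than in *E1E2 G9Gl* (0.0816 and 0.542). Among the fibroblast markers, *Lum* had at most 0.013 CPM on average and *Thy1* was at or below 0.0695 CPM on average in *E1 S1S2*, *6KO1* and *6KO2*. Pluripotency markers summed to at most 1.64 CPM over 8 genes, with *Zfp42* and *Utf1* at 0. Germ cell markers summed to at most 0.447 CPM over 4 genes. Markers of 2-cell-like cells, of which 3 of 4 listed genes were found, summed to 2.82 to 4.55 CPM in *6KO1*, 1.05 to 1.39 in *6KO2*, 1.24 to 1.5 in *E1 S1S2*, 0.437 to 1.56 in *E1E2* and at most 0.417 in the other conditions. *Cd68*, a macrophage marker, was at 19.4 CPM in *6KO1* against 2.54 to 4.96 elsewhere, whereas *Ptprc*, the other blood marker, was highest in *E1E2 G9Gl* at 1.89 CPM, with 0.619 in *6KO1*. *Krt8* led an epithelial sum of 16.6 to 17.6 CPM in *6KO1*, 3.84 to 12.4 in the other mutant conditions and 1.22 to 1.98 in WT. The endothelial pair summed to 3.58 to 4.17 CPM in *6KO1*, 2.45 to 3.03 in *6KO2*, 1.28 to 1.87 in *E1E2 G9Gl* and at most 0.585 elsewhere. The part of any of these markers in the results was not tested.

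Whole-gene counts of the targeted enzymes checked the labels only in part, because they also cover exons that were not disrupted. *Suv39h1* was at 49.6 to 50.7 CPM in *E1 S1S2* against 116 to 117 in *E1*, and at 62.0 to 63.5 in *6KO2* against 77.3 to 81.5 in *E1E2 G9Gl*. *Suv39h2* was instead higher in *E1 S1S2*, at 61.2 to 73.1 CPM, than in *E1*, at 36.1 to 37.9, and higher in *6KO2*, at 18.8 to 22.0, than in *E1E2 G9Gl*, at 14.0 to 14.6. *Setdb1* fell between WT (58.4 to 63.7 CPM) and *E1* (39.3 to 43.1), but *E2* (40.2 to 55.3) and *E1E2* (46.9 to 50.1) overlapped.

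The levels of the members fell into 3 patterns. *Zfp990*, *Zfp600*, *Rex2*, *Gm13147*, *Zfp982*, *Zfp985* and *Zfp534* were at or next to 0 in WT. *Zfp981* had few counts in WT but was transcribed in every mutant. *Zfp992* and *Zfp993* had many counts in WT already. Of the windows of *Zfp993*, however, 75.4% also occurred in *Zfp991* and 57.3% in *Znf41-ps*, which stood at 4.49 and 14.9 CPM in WT. Which copy the WT counts of *Zfp993* came from is therefore uncertain. Different genes were set side by side per kilobase of exon, which allows for their length but not for shared sequence. On this scale *Zfp992* was at 5.84 ± 0.88 CPM per kb in WT (SD, n = 3) and *Zfp993* at 4.90 ± 0.83. *Zfp981* stood at 0.0700 ± 0.0046 and the other 7 at or below 0.0087 CPM per kb.

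**Figure D2:**
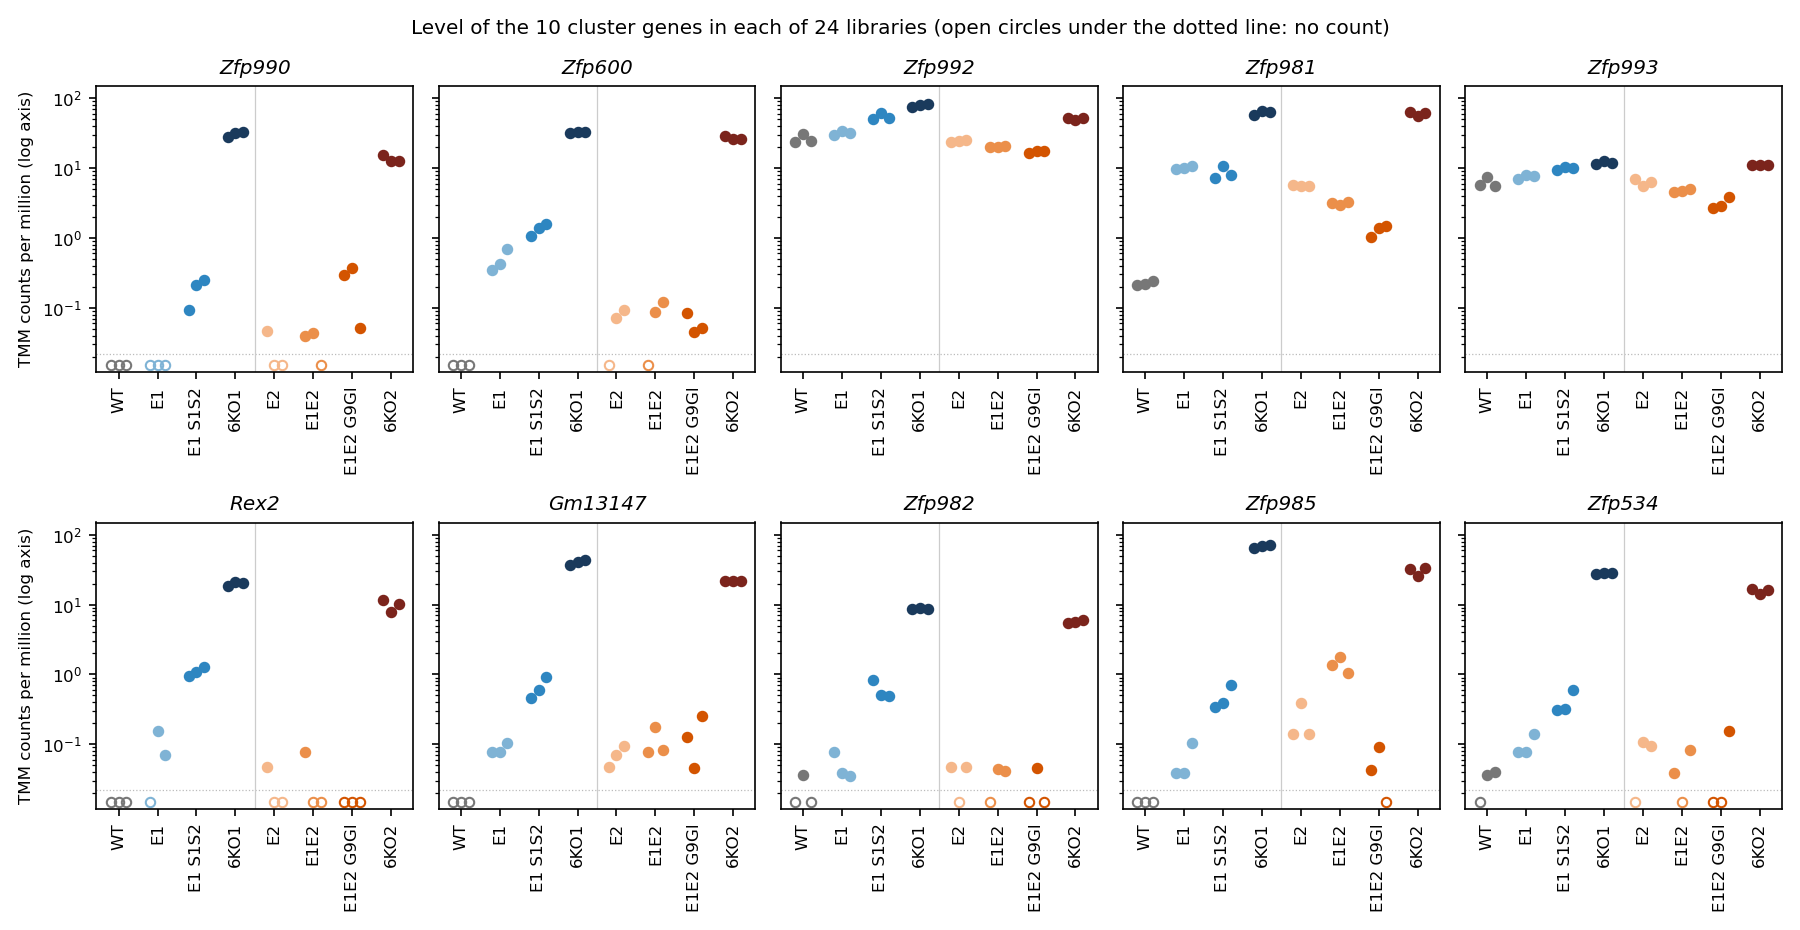
Each panel shows 1 cluster gene, with TMM-scaled CPM on a log axis and the 8 conditions on the horizontal axis, series 1 left and series 2 right of the vertical line. Every point is 1 library, and open circles under the dotted line are libraries without a count. In *6KO1* and *6KO2* all points of all 10 genes lie above 5 CPM, whereas 7 of the genes have no point above 2 CPM in any other condition.

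*Zfp985* had no count in the 3 WT libraries. In *6KO1* its 3 libraries had 1879, 2000 and 1827 counts, which is 65.3, 68.8 and 70.6 CPM. In *6KO2* they had 799, 574 and 757 counts, or 32.7, 25.9 and 33.0 CPM. The other 5 conditions stayed below 2 CPM in every library. In rising order the mean levels were 0 in WT, 0.0447 in *E1E2 G9Gl*, 0.0606 in *E1*, 0.224 in *E2*, 0.482 in *E1 S1S2*, 1.39 in *E1E2*, 30.5 in *6KO2* and 68.2 CPM in *6KO1*. The libraries of *E1E2 G9Gl* and *E1* overlapped, as did those of *E2* and *E1 S1S2*, and 1 library of *E1E2 G9Gl* had no count, as in WT. The other neighbours in this order did not overlap. Against WT at the floor, *Zfp985* was at least 1742-fold higher in *6KO1* and at least 783-fold higher in *6KO2*.

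*Gm13147* had no count in WT either. Its 3 libraries stood at 36.9, 40.2 and 43.3 CPM in *6KO1* and at 22.0, 21.5 and 21.5 CPM in *6KO2*. *E1 S1S2* came next with 0.464, 0.608 and 0.924 CPM. The libraries of *E2*, *E1*, *E1E2* and *E1E2 G9Gl* overlapped, with mean levels of 0.0706, 0.0865, 0.112 and 0.143 CPM, or 5 to 9 counts per condition. The *6KO1* level was at least 1023-fold that of WT and the *6KO2* level at least 554-fold.

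All 10 members had every *6KO1* library above every WT library, where 39.1% of all genes tested did so, and the choice of the set used this contrast. Per kilobase of exon the order in *6KO1* was *Gm13147* (28.3 CPM per kb), *Zfp985* (23.8), *Zfp981* (19.7), *Zfp992* (17.3), *Zfp534* (9.75), *Zfp993* (9.38), *Zfp990* (8.81), *Zfp600* (6.64), *Zfp982* (5.86) and *Rex2* (4.60). In *6KO2* *Zfp981* led with 18.9 CPM per kb, ahead of *Gm13147* (15.3), *Zfp992* (11.2) and *Zfp985* (10.6), and *Rex2* was again last with 2.28. How reads that fit several copies were counted is not known. Both orders are therefore uncertain for genes that share much sequence, such as *Rex2*, *Zfp993* and *Zfp600*. The fitted difference between *6KO1* and *6KO2* was positive for every member, from 0.06 for *Zfp981* and 0.11 for *Zfp993* to 1.16 for *Zfp985* and 1.18 for *Zfp990* on the log2 scale. Between *6KO1* and *E1 S1S2*, the clone from which *6KO1* was derived, the fitted difference was 7.37 for *Zfp990*, 7.15 for *Zfp985*, 5.92 for *Gm13147* and 2.86 for *Zfp981*, and it was 0.53 for *Zfp992* and 0.27 for *Zfp993*.

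The step from *E1E2 G9Gl* to *6KO2*, in which *Suv39h1* and *Suv39h2* were mutated, used neither WT nor *6KO1*. All 10 members rose at this step. *Rex2* went from no count to at least 216-fold more, *Zfp985* rose 663-fold and *Zfp600* rose by 8.67 on the log2 scale. *Zfp992* and *Zfp993*, which had many counts before, rose by 1.56 and 1.83. A gene was called when it changed by 1 or more on the log2 scale and its adjusted p in edgeR's quasi-likelihood test was 0.01 or less. By this rule 7.19% of the 18565 genes tested were higher in *6KO2*, against 10 of 10 members, and the median log2 fold change was 7.69 for the members (7.50 with *Rex2* at its bound) and 0.02 for all genes. *Zfp990* and *Zfp534* passed the filter on low counts only through the *6KO1* and *6KO2* libraries, and had to differ to be tested. With those libraries left out of the filter, a setting chosen after seeing the data, 8 members were tested and 8 rose, where 5.74% of all genes tested did.

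At this step *Zfp985* went from 1, 2 and 0 counts in the *E1E2 G9Gl* libraries to 799, 574 and 757 in *6KO2*. With 3 counts in the lower group, the 95% interval of the 663-fold ratio was 227 to 3216, for counting error only, and the log2 fold change was 9.22 ± 0.30 (SE, n = 3; adjusted p = 3.8e-16, edgeR). *Zfp534*, one of the pair that passed the filter only through *6KO1* and *6KO2*, went from 0, 0 and 3 counts to 409, 317 and 370, a ratio of 341 with an interval of 116 to 1656. No library of *E1E2 G9Gl* came near the lowest *6KO2* library for either gene, and 34.3% of all genes tested had every *6KO2* library higher. *Zfp982* had a single count in *E1E2 G9Gl* and 134, 124 and 140 counts in *6KO2*, so that its ratio of 372 had an interval of 66.3 to 14710.

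*Rex2* and *Zfp600*, which share most of their sequence, moved together at this step. *Rex2* had no count in the 3 *E1E2 G9Gl* libraries and 284, 173 and 237 in *6KO2* (adjusted p = 3.1e-12, edgeR). *Zfp600* had 2, 1 and 1 counts and then 714, 581 and 596 (log2 fold change 8.67 ± 0.27; adjusted p = 2.3e-16, edgeR). Reads of either gene could have been counted for the other, so these are not independent observations. *Gm13147* rose from 3, 1 and 5 counts to 539, 476 and 492, by 7.24 ± 0.22 on the log2 scale. *Zfp990* rose from 7, 8 and 1 counts to 380, 283 and 285, by 5.76 ± 0.26.

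*Zfp981* rose from 1.02, 1.37 and 1.48 CPM in *E1E2 G9Gl* to 63.3, 55.2 and 61.3 CPM in *6KO2*, by 5.54 ± 0.14 on the log2 scale (adjusted p = 9.1e-19, edgeR). *Zfp992* rose from 16.5, 17.6 and 17.9 CPM to 51.9, 48.8 and 52.2 (1.56 ± 0.09; adjusted p = 7.2e-13, edgeR). *Zfp993* rose from 2.64, 2.88 and 3.89 CPM to between 10.9 and 11.2 in all 3 libraries (1.83 ± 0.13; adjusted p = 5.9e-11, edgeR). For these 3 genes every *6KO2* library was above every *E1E2 G9Gl* library, which held for 34.3% of all genes tested. Against WT, however, *Zfp992* and *Zfp993* in *6KO2* were higher by 0.94 and 0.82 on the log2 scale, under the fold required for a call. Both had lower mean levels in *E1E2 G9Gl* than in WT, at 17.3 against 26.6 CPM for *Zfp992* and 3.14 against 6.25 for *Zfp993*.

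**Figure D3:**
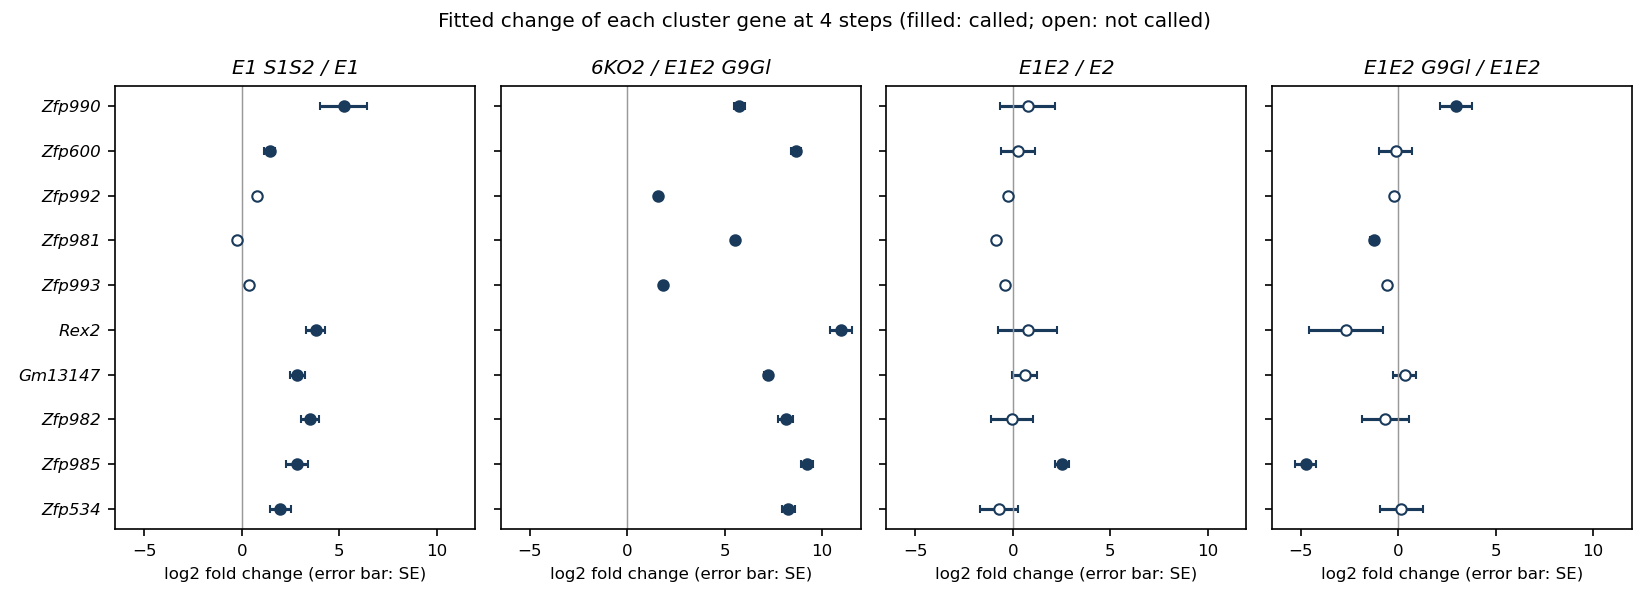
Log2 fold change (horizontal axis) of each cluster gene (vertical axis) at 4 steps, with bars of 1 SE from the fit over 24 libraries; filled points passed the call and open points did not. All 10 points are filled for *6KO2* against *E1E2 G9Gl* and 7 for *E1 S1S2* against *E1*, while at the other 2 steps most points are open and some lie below 0. The points of *Rex2* in both panels with *E1E2 G9Gl* and of *Zfp990* in the panel of *E1 S1S2* rest on a group without counts and are no bounds.

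The same pair of enzymes was mutated in series 1, from *E1* to *E1 S1S2*. Here 7 of 10 members rose, where 4.31% of all genes tested did, but to far lower levels. The 7 were *Zfp990*, *Zfp600*, *Rex2*, *Gm13147*, *Zfp982*, *Zfp985* and *Zfp534*, and their mean levels in *E1 S1S2* were 0.185 to 1.35 CPM. *Zfp992* differed by 0.78 ± 0.08 on the log2 scale (adjusted p = 6.5e-08, edgeR), under the fold required. *Zfp993* differed by 0.39 ± 0.12 and *Zfp981* by -0.24 ± 0.11, the latter with an adjusted p of 0.082. The median log2 fold change of the members was 2.41 (2.13 with *Zfp990* at its bound), and that of all genes was -0.01.

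*Rex2* had 0, 4 and 2 counts in *E1* and 31, 30 and 36 in *E1 S1S2*, a rise of 3.79 ± 0.49 on the log2 scale (adjusted p = 3.3e-06, edgeR). *Zfp982* had 2, 1 and 1 counts and then 27, 14 and 14 (3.51 ± 0.46). *Gm13147* went from 2, 2 and 3 counts to 15, 17 and 26 (2.85 ± 0.39), and *Zfp985* from 1, 1 and 3 to 11, 11 and 20 (2.84 ± 0.57). In none of these did a library of *E1* reach the lowest library of *E1 S1S2*, but how many of all genes did so was not counted. *Zfp990* had no count in *E1* and 3, 6 and 7 counts in *E1 S1S2*, at least 4.85-fold more (adjusted p = 0.0016, edgeR). *Zfp534* had 2, 2 and 4 counts and then 10, 9 and 17 (1.98 ± 0.52; adjusted p = 0.0035, edgeR), a call lost without *E1* replicate 1 (adjusted p = 0.017), *E1* replicate 2 (0.016) or *E1 S1S2* replicate 3 (0.030). In a fit of these 6 libraries alone *Zfp990*, *Zfp985* and *Zfp534* did not pass the filter on low counts, and 4 members were called. With the *6KO1* and *6KO2* libraries left out of the filter, 5 of 8 members were called, where 4.36% of all genes tested were.

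Whether the step differed between the series was tested as an interaction. The log2 fold change was higher in the *E1E2 G9Gl* background for 8 of 10 members, where 7.71% of all genes tested were higher by the same rule. With the *6KO1* and *6KO2* libraries left out of the filter it was 7 of 8 members, and 7.98% of all genes tested. *Zfp600* differed by 7.25 ± 0.52 on the log2 scale, *Zfp534* by 6.28 ± 1.03, *Zfp981* by 5.78 ± 0.18 and *Gm13147* by 4.39 ± 0.76. *Zfp990* (0.52 ± 0.76, adjusted p = 0.60, edgeR) and *Zfp992* (0.78 ± 0.12, adjusted p = 9.2e-06, edgeR) did not pass the call. The calls of *Rex2*, *Zfp982* and *Zfp985* rested on at most 6 counts in *E1* and at most 3 in *E1E2 G9Gl*. The call of *Zfp982* was lost without *E1* replicate 1 (adjusted p = 0.029, edgeR), that of *Rex2* without *E1* replicate 2 (0.023) and that of *Zfp985* without *E1* replicate 3 (0.016).

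From *E1E2* to *E1E2 G9Gl*, the clone in which *G9a* and *Glp* were also mutated, *Zfp985* and *Zfp981* fell and *Zfp990* rose, where 6.78% of all genes tested fell and 14.8% rose. *Zfp600*, *Rex2*, *Gm13147*, *Zfp982* and *Zfp534* had at most 9 counts in either condition and were not called. *Zfp993* differed by -0.61 ± 0.14 on the log2 scale (adjusted p = 0.00073, edgeR) and *Zfp992* by -0.23 ± 0.09 (adjusted p = 0.029, edgeR), both under the fold required. *Zfp985* stood at 1.36, 1.75 and 1.06 CPM in *E1E2*, and at 0.0426, 0.0914 and 0 CPM in *E1E2 G9Gl*, which is 101 counts against 3. It was 29.9-fold lower, and the ratio of 0.0334 had a counting interval of 0.00678 to 0.101 (adjusted p = 6.8e-08, edgeR). *Zfp981* fell by 1.27 ± 0.18 on the log2 scale, from 3.12, 2.93 and 3.23 CPM. The rise of *Zfp990*, from 1, 1 and 0 counts to 7, 8 and 1, had a ratio of 9.0 with a counting interval of 2.12 to 80.7. That call was lost without *E1E2* replicate 1 (adjusted p = 0.011, edgeR), *E1E2* replicate 3 (0.021), *E1E2 G9Gl* replicate 1 (0.019) or *E1E2 G9Gl* replicate 2 (0.028), and *Zfp990* was not tested with the *6KO1* and *6KO2* libraries left out of the filter.

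*E2* and *E1E2* differ in 4-OHT, given to 1 *Eset2*-mutant clone. Between them *Zfp985* was the 1 member of 10 that rose by the call, where 2.32% of all genes tested rose. *Zfp985* had 3, 11 and 3 counts in *E2* and 35, 40 and 26 in *E1E2*, a rise of 2.51 ± 0.36 on the log2 scale (adjusted p = 2.9e-05, edgeR). The next largest difference in absolute size was in *Zfp981*, from 5.73, 5.46 and 5.54 CPM to 3.12, 2.93 and 3.23 CPM, which is -0.85 ± 0.14 on the log2 scale (adjusted p = 8.2e-05, edgeR) and under the fold required. *Zfp992* and *Zfp993* differed by -0.26 and -0.41. The other 6 members had at most 8 counts in either condition.

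The branch without *G9a* and *Glp* was compared with the branch without *Suv39h1* and *Suv39h2*. In *E1E2 G9Gl*, 9 of 10 members were lower than in *E1 S1S2*, where 5.82% of all genes tested were. With the *6KO1* and *6KO2* libraries left out of the filter it was 8 of 8, where 5.84% of all genes tested were lower. In a fit of these conditions alone, in which *Zfp985* and *Zfp534* did not pass the filter, it was 7. *Rex2* had 97 counts in *E1 S1S2* and none in *E1E2 G9Gl*, at least 23.7-fold lower. The log2 fold change was -4.34 ± 0.44 for *Zfp600*, -2.74 ± 0.15 for *Zfp981*, -1.67 ± 0.13 for *Zfp993* and -1.66 ± 0.09 for *Zfp992*. For the other 4 members that were lower it lay between -4.94 (*Zfp982*) and -2.20 (*Gm13147*). *Zfp990* had 16 counts in both (0.43 ± 0.53). These clones also differ in *Eset2*, and *E1E2 G9Gl* and *E1 S1S2* enter the steps above as well.

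Against WT, the 8 members other than *Zfp985* and *Gm13147* were tested in the conditions other than *6KO1*, which share the WT libraries. Of the 8, *Zfp990* and *Zfp534* passed the filter only through *6KO1* and *6KO2*, and without those libraries in the filter 6 were tested. Of these, 2 were higher in *E1* (2.32% of all genes tested), 5 in *E1 S1S2* (6.6%) and 4 in *6KO2* (13.4%). Another 1 was higher in each of *E2* (3.03%), *E1E2* (5.5%) and *E1E2 G9Gl*. The last is 16.7% of the 6, near the 16.6% of all genes tested. In *E1*, *Zfp981* and *Zfp600* rose, 2 of 8 members where 2.27% of all genes tested did. *Zfp981* had 5, 6 and 6 counts in WT and 248, 258 and 308 in *E1*, a rise of 5.48 ± 0.20 on the log2 scale (adjusted p = 1.5e-15, edgeR). *Zfp600* had no count in WT and 9, 11 and 20 in *E1*, at least 12.7-fold more (adjusted p = 8.1e-06, edgeR). In a fit of WT and *E1* alone *Zfp600* did not pass the filter, which left 1 call.

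*Zfp981* was the member called in every mutant condition tested. It was the only call among the 8 in *E2*, where 2.9% of all genes tested rose, and in *E1E2*, where 5.51% rose. It stood at 5.73, 5.46 and 5.54 CPM in *E2*, although *Eset1* was not deleted there, and was higher than in WT by 4.62 ± 0.22 on the log2 scale. Without *E1E2* replicate 1, *Zfp600* joined it in *E1E2*, for 2 calls. Its order of mean levels was 0.222 CPM in WT, 1.29 in *E1E2 G9Gl*, 3.09 in *E1E2*, 5.58 in *E2*, 8.60 in *E1 S1S2*, 10.1 in *E1*, 59.9 in *6KO2* and 62.3 in *6KO1*. The libraries of *E1 S1S2* and *E1* overlapped, as did those of *6KO2* and *6KO1*.

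In *E1 S1S2*, 7 of 8 members were higher than in WT, where 6.65% of all genes tested were, and *Zfp993* differed by 0.66 ± 0.12. In a fit of these conditions alone *Zfp990* and *Zfp534* did not pass the filter, which left 5 calls. The call of *Zfp992* (1.04 ± 0.08) lay at the fold required and was lost without WT replicate 1 (0.98), WT replicate 3 (0.99) or *E1 S1S2* replicate 2 (0.96). In *6KO2*, 6 of 8 were higher, where 15.3% of all genes tested were. *Zfp600* was at least 695-fold higher there, *Zfp990* at least 349-fold and *Rex2* at least 255-fold, and *Zfp981* rose by 8.05 ± 0.18 on the log2 scale. Without WT replicate 2, *Zfp992* joined them, at 1.07.

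In *E1E2 G9Gl*, *Zfp981* and *Zfp990* were higher than in WT, 2 of 8 members where 16.8% of all genes tested were higher. *Zfp993* was lower, where 8.41% were, with a log2 fold change of -1.01 ± 0.14. It had 5.64, 7.47 and 5.63 CPM in WT and 2.64, 2.88 and 3.89 CPM in *E1E2 G9Gl*. The fold lay at the minimum for a call, and DESeq2 (-0.98), RLE factors (-0.98), a fit of these conditions alone (-0.98), the filter without the *6KO1* and *6KO2* libraries (-0.998) and the fit without WT replicate 2 (-0.86), *E1E2 G9Gl* replicate 1 (-0.90) or *E1E2 G9Gl* replicate 2 (-0.94) left it just inside.

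The stretch holds many neighbours of the members, most of them annotated as pseudogenes. Of the other 71 genes annotated there, 36 passed the filter on low counts and 7 had no count in any library. In *6KO2* against *E1E2 G9Gl*, 22 of the 36 rose, with a median log2 fold change of 1.66, where 7.19% of all genes tested did. Some of the 36 passed the filter only through the *6KO1* and *6KO2* libraries: with these left out of the filter, 11 of 25 rose, with a median of 0.64, where 5.74% of all genes tested did. The largest fitted rises were in *Zfp980*, *Gm21411*, *Zfp987* and *Zfp978*. *Zfp980* had no count in *E1E2 G9Gl* and 13.8 CPM in *6KO2*, and *Zfp978* went from 0.0465 to 43.3 CPM. *Gm21411* and *Zfp987* went from no count to 5.23 and 4.27 CPM. In *E1 S1S2* against *E1*, 8 of the 36 rose, among them *Gm21411*, *Gm13155*, *Gm8178* and *Zfp978*, with a median of 0.28, where 4.31% of all genes tested did, or 5 of 25 with a median of 0.11 under that other filter. *Zfp978* rose there from 0.621 to 7.22 CPM, by 3.53 ± 0.21 on the log2 scale. Several of these genes share sequence with the members, so part of their counts may be shared too. Some also lie within a rising gene on the same strand, such as *Gm8178* in *Zfp978* and *Gm13155* in *Zfp979*. Their counts may include RNA of that gene, so they are not separate observations.

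The neighbours were also counted at the other steps, each beside the share of all genes tested. In *E1E2 G9Gl*, 5 of the 36 (13.9%) were lower than in *E1E2* against 6.78% of all genes, led by *Zfp979*, *Zfp986*, *Zfp978* and *Zfp988*, and DESeq2 called 3. *Zfp979* fell there from 1.13 to 0.0969 CPM. Compared with *E1 S1S2*, 13 (36.1%) were lower against 5.82% of all genes, led by *Zfp980*, *Zfp978*, *Zfp979* and *Gm21411*. Between *E2* and *E1E2* no neighbour passed the call in edgeR or in DESeq2. At an unadjusted p under 0.05, 0 of the 36 were higher and 5 lower, where 3085 and 2557 of all 18565 genes tested were. By the interaction 7 (19.4%) were higher against 7.71%, and DESeq2 called 11.

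Against WT, 5 neighbours (13.9%) rose in *E1*, led by *Zfp980*, *Zfp978*, *Zfp986* and *Zfp988*, where 2.27% of all genes tested did. In *E1 S1S2* 13 (36.1%) rose against 6.65%, and in *6KO2* 19 (52.8%) against 15.3%, or 8 of 25 against 13.4% with the *6KO1* and *6KO2* libraries left out of the filter. The shares were close to those of all genes in *E2*, with *Zfp979* alone (2.78% against 2.9%), and in *E1E2*, with *Zfp978* and *Zfp986* (5.56% against 5.51%), of which DESeq2 called 1. *Zfp979* alone was lower in *E1E2 G9Gl* (2.78% against 8.41%).

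**Figure D4:**
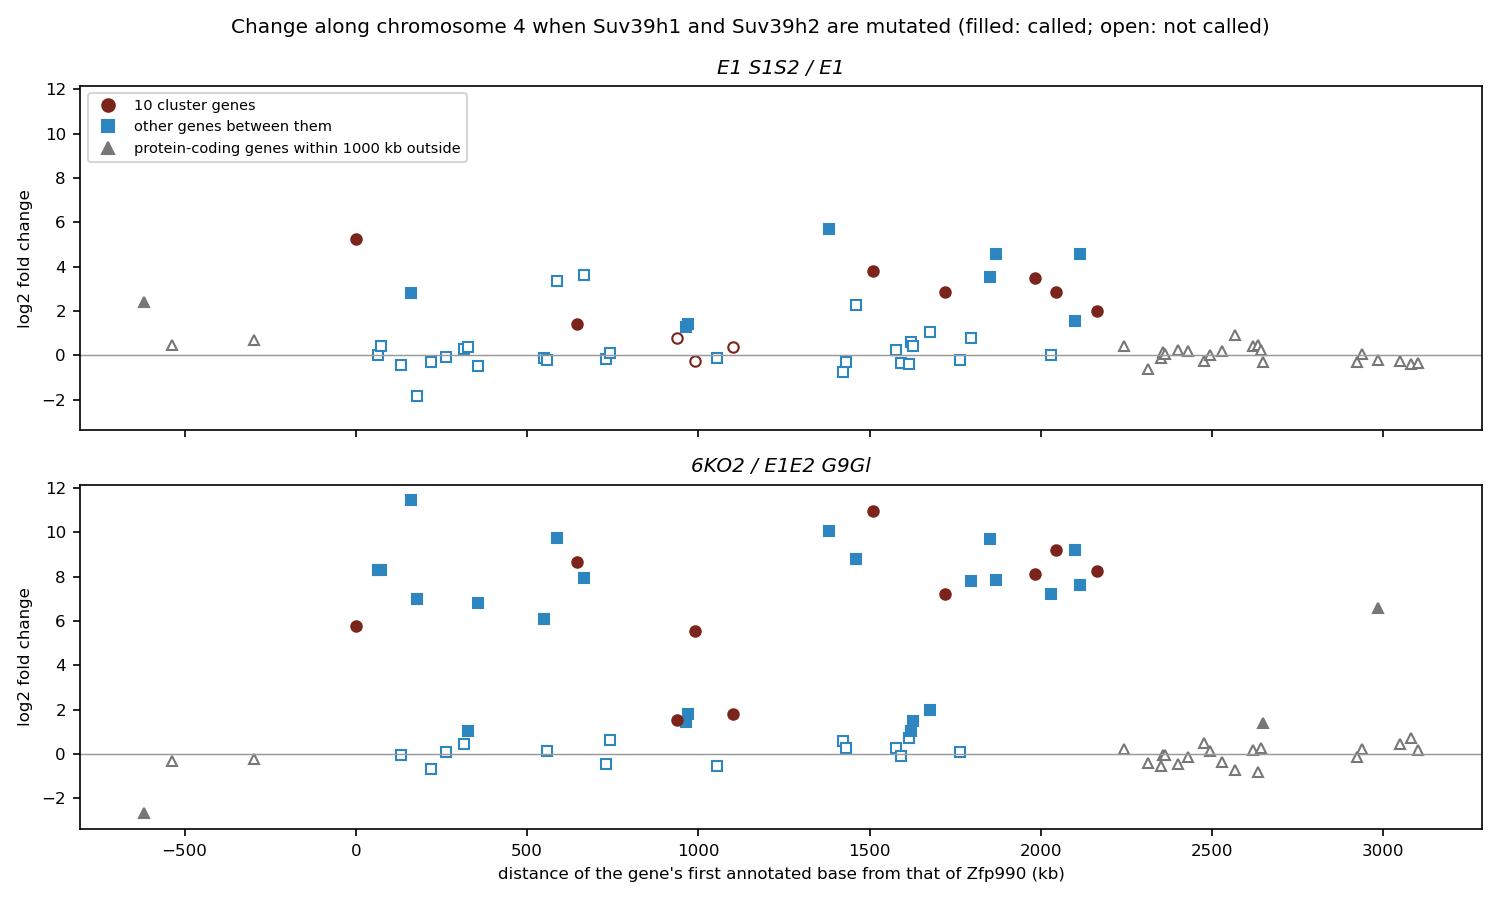
Log2 fold change (vertical axis) of every tested gene by the distance of its first annotated base from that of *Zfp990* (horizontal axis, kb), for *E1 S1S2* against *E1* (top) and *6KO2* against *E1E2 G9Gl* (bottom). Circles are the 10 cluster genes, squares the other genes between them and triangles protein-coding genes within 1000 kb outside; filled symbols passed the call. In the lower panel filled symbols spread over the whole stretch between the outermost members, whereas 3 of 24 triangles are filled.

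The stretch was also compared with its flanks. Of 36 protein-coding genes within 1000000 bases on either side, 24 passed the filter. In *6KO2* against *E1E2 G9Gl*, *Angptl7* (6.61 ± 0.29) and *Fbxo2* (1.39 ± 0.25) rose and *Dhrs3* fell by 2.68 ± 0.19 on the log2 scale, with a median of -0.04 over the 24. That is 8.33% higher and 4.17% lower, against 7.19% and 9.12% of all genes tested. In *E1 S1S2* against *E1* *Dhrs3* alone rose (4.17%, against 4.31% of all genes tested), by 2.42 ± 0.32, and in *E1E2* against *E2* *Nppb* alone (4.17% against 2.32%), by 1.15 ± 0.22. In *E1E2 G9Gl* against *E1E2*, 3 rose (12.5%) and 2 fell (8.33%), where 14.8% and 6.78% of all genes tested did, with the largest changes in *Angptl7* (-7.73 ± 0.25), *Dhrs3* (4.75 ± 0.24) and *Fbxo2* (-2.20 ± 0.23). Against WT, 4 were higher (16.7%) and 2 lower (8.33%) in *E1E2 G9Gl*, against 16.8% and 8.41% of all genes tested, and 4 were higher (16.7%) and 1 lower in *6KO2*, where 15.3% were higher. *Zfp984*, the zinc finger gene just outside that holds the 15-base stretch, was at 20.8 CPM in WT, 26.4 in *E1E2 G9Gl* and 31.2 in *6KO2*, and did not pass the call (0.24 ± 0.16, adjusted p = 0.20, edgeR). The other 5 genes outside the set that hold the stretch, *Gm13212*, *Zfp980*, *Zfp987*, *Zfp988* and *Zfp979*, all rose at this step, to between 4.27 and 57.4 CPM. Among the neighbours with the largest fitted rises, *Zfp980* and *Zfp987* hold these 15 bases, and *Gm21411* and *Zfp978* are not among the 12 holders. Any part of the 15 bases in the rise was not tested.

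Zinc finger genes elsewhere in the genome were counted in the same way. Of 356 genes named Zfp with a number that lie outside this stretch, 320 were tested. In *6KO2* against *E1E2 G9Gl*, 13 of them rose (4.06%) and 21 fell (6.56%), where 7.19% and 9.12% of all genes tested did, with a median log2 fold change of -0.09. In *E1 S1S2* against *E1*, 1 rose (0.312%) and 14 fell (4.38%), where 4.31% and 3.74% did, with a median of 0.01. In *E1E2 G9Gl* against *E1E2*, 40 rose (12.5%) and 15 fell (4.69%), where 14.8% and 6.78% did, and in *E1E2* against *E2*, 3 rose (0.938% against 2.32%) and none fell. No test of the members against these genes was made.

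The genes whose levels most resembled those of the chosen pair over the 24 libraries were taken by the Pearson correlation of log2 CPM, which is given as a description, since all points share the same clones and conditions. For *Gm13147* the 5 highest were *Gm13155* (0.988), *Zfp534* (0.987), *Gm8178* (0.987), *Gm21411* (0.986) and *Zfp989* (0.981), all in the same stretch of chromosome 4. Of these, *Gm13155* and *Gm8178* lie within *Zfp979* and *Zfp978* on the same strand, so their counts may include RNA of those genes. For *Zfp985* they were *4930579C12Rik* on chromosome 9 (0.955), *Gm13228* in the stretch (0.946), *Dpyd* on chromosome 3 (0.944), *Gm13147* (0.941) and *Sdk2* on chromosome 11 (0.941). Among the members, the correlation ran from 0.602 for *Zfp990* with *Zfp993* to 0.987 for *Gm13147* with *Zfp534*.

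Cofactors through which KRAB zinc finger proteins act were not called at any step. Of 16 such genes, among them *Trim28*, *Setdb1*, *Atf7ip*, the HP1 genes and the HUSH and Morc genes, 16 were tested. None passed the call at any of the 5 steps in edgeR or in DESeq2. At an unadjusted p under 0.05, 2 were higher and 6 lower in *E1 S1S2* against *E1*, where 4513 and 4916 of all 18565 genes tested were. It was 3 and 3 in *E1E2* against *E2* (all genes 3085 and 2557), and 2 and 11 in *E1E2 G9Gl* against *E1E2* (6382 and 5842). It was 6 and 2 in *6KO2* against *E1E2 G9Gl* (5578 and 5465), and 4 and 9 in *E1E2 G9Gl* against *E1 S1S2* (6061 and 5679). Against WT, *Atf7ip*, the partner that stabilizes Setdb1, was higher in *E1*, *E1 S1S2*, *E2*, *E1E2*, *E1E2 G9Gl* and *6KO2*, by 1.57 to 1.86 on the log2 scale. In *E1E2 G9Gl*, *Morc3* (1.37 ± 0.10) and *Fam208a* (1.24 ± 0.06), which encodes the HUSH subunit Tasor, were also higher, and *Setdb1* was lower (-1.19 ± 0.08). By the interaction *Morc3* alone differed (-1.09 ± 0.13), which is 6.25% lower against 8.76% of all genes tested.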

How the data were processed

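Total RNA of 24 MEF cultures was sequenced with a stranded kit in paired reads of 75 bases. The authors trimmed reads with cutadapt (1.8.1), aligned them to GRCm38 with STAR (2.5.2b) and counted them on genes and repeats with TEtranscripts. They deposited whole-number counts, without normalization. STAR was run as the makers of TEtranscripts advise. The annotation release and the strand and counting modes of TEtranscripts, and with them how reads that fit several genes were shared out, are not given in the sources used here. Columns were matched to libraries by name, and 0 were left without a sample. Repeat rows were not used.

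Genes were filtered with filterByExpr by condition (18565 of 47937 left), scaled by TMM, and tested with edgeR (4.0.16, R 4.3.3) by the two-sided quasi-likelihood test over all 24 libraries, 1 coefficient per condition, with Benjamini-Hochberg adjustment over all genes tested. On simulated counts of 17136 genes for *6KO2* against *E1E2 G9Gl*, the test recovered 97 of 100 changes of 1.5 and 100 of 100 of 3 on the log2 scale. SE is the absolute log2 fold change divided by the square root of F. Ratios of totals of 1 to 3 counts have exact Clopper-Pearson intervals (95%). The members and lists were chosen with earlier results of these data known. Genes named were the members, the 5 most alike to each of *Zfp985* and *Gm13147*, up to 4 called neighbours and up to 3 called flanking genes per step, called cofactors, and holders of the 15-base stretch, which were added after the data were seen. Shared windows came from GENCODE transcripts of GRCm38 (given in the reference, which may not be the release the counts used), start sites from RefSeq, alignments from MAFFT (7.526). Replicate numbers did not pair libraries. Alternatives were DESeq2 (1.42.0), RLE factors, no filter, no fold minimum, fits of the compared conditions alone, a replicate block, leaving out each library and, added after the data were seen, leaving the *6KO1* and *6KO2* libraries out of the filter.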

Additional observations from a re-analysis of the deposited data

Results flagged for a closer look

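The step that mutated *Suv39h1* and *Suv39h2* changed 8 members by different amounts in the 2 series, by the interaction term of the fit (*6KO2* against *E1E2 G9Gl*, minus *E1 S1S2* against *E1*). The difference of the log2 fold changes was 7.25 for *Zfp600*, 5.78 for *Zfp981*, 1.44 for *Zfp993*, 7.18 for *Rex2*, 4.39 for *Gm13147*, 4.63 for *Zfp982*, 6.38 for *Zfp985* and 6.28 for *Zfp534*. In each of these the log2 fold change was higher at the step to *6KO2*. Some starting levels differed as well. *Zfp993* began at 3.14 CPM in *E1E2 G9Gl* against 7.56 in *E1*, and *Zfp981* at 1.29 against 10.1. *Gm13147* began at overlapping levels, with 9 counts in *E1E2 G9Gl* and 7 in *E1*, and the others had at most 40 counts in either. *Zfp534* passed the filter on low counts only through the *6KO1* and *6KO2* libraries. *Rex2* had no count in *E1E2 G9Gl*, so its value is no bound and no exact size. The 2 backgrounds differ in clone as well as in *Eset2*, *G9a* and *Glp*, and these cannot be told apart.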

How the results depend on the processing

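All members tested stayed called in *6KO2* against *E1E2 G9Gl* under every alternative run, 8 with the *6KO1* and *6KO2* libraries left out of the filter and 10 otherwise, and no called member changed sign. That filter, chosen after seeing the data, left 0 members called higher in *E1E2 G9Gl* against *E1E2*, and 1 higher and 0 lower in *E1E2 G9Gl* against WT, since *Zfp990* was not tested and *Zfp993* lay at -0.998. Neighbours called higher went from 22 to 11 in *6KO2* against *E1E2 G9Gl*, from 19 to 8 in *6KO2* against WT and from 8 to 5 in *E1 S1S2* against *E1*. DESeq2 and RLE factors moved 1 count: *Zfp993* in *E1E2 G9Gl* against WT was no longer called lower (0 for 1). Without a fold minimum the members called lower became 2 there, 1 in *E1E2* against WT and 1 in *E1E2* against *E2*. With only the conditions compared in the fit, fewer genes passed the filter: the members called higher were 4 in *E1 S1S2* against *E1*, 0 in *E1E2 G9Gl* against *E1E2*, 1 in *E1* against WT and 1 in *E1E2 G9Gl* against WT, and 0 were called lower in the last. In that fit the members called were 7 for 9 in *E1E2 G9Gl* against *E1 S1S2* and 5 for 7 in *E1 S1S2* against WT. Leaving out each library gave 0 to 1 called higher in *E1E2 G9Gl* against *E1E2*, 1 to 2 called higher in *E1E2* against WT and 0 to 1 called lower in *E1E2 G9Gl* against WT. The replicate block kept all 58 member calls, with 10 of 10 in *6KO2* against *E1E2 G9Gl*. Same-numbered libraries deviated together with correlations of -0.29 to 0.12 over 33 pairs, and in 0 comparisons did all 3 pass 0.1. Beyond the filter and fold minimum, the cause of these moves was not tested. By DESeq2, 11 neighbours against 7 in edgeR were higher by the interaction, 3 against 5 lower in *E1E2 G9Gl* against *E1E2*, 1 against 2 higher in *E1E2* against WT, and 2 zinc finger genes elsewhere against 1 higher in *E1 S1S2* against *E1*. At 19.5 to 32.3 counts per CPM, levels under about 0.1 CPM rest on a few reads, and folds there depend on counting error.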
